A study of Drosophila melanogaster with 12 samples.

Results

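The genes described here are long noncoding RNA genes and antisense RNA genes of Drosophila melanogaster, measured by RNA sequencing in enterocytes sorted from the adult female midgut. They are the genes whose symbols start with lncRNA: or asRNA:, without asRNA:CR45600, that reached 60 raw counts summed over 12 libraries. The table of 8802 genes held 385 such symbols, and 330 genes met the rule, 119 of them lncRNA: and 211 asRNA: genes. A further 54 fell short of 60 counts. The genes just inside the minimum were asRNA:CR45520 and lncRNA:CR45217, each with 61 counts, and those just outside were asRNA:CR45208 and lncRNA:CR44138, each with 58. The members were thus chosen by their symbols and selected on their summed counts, without regard to genotype. Because the minimum was set on measured counts, every statement below is about noncoding genes with reads in these cells, not about all annotated noncoding genes.

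Long noncoding RNAs are transcripts without a long open reading frame, many of them spliced and polyadenylated like mRNAs. Some act as the RNA itself, some are the precursor from which small RNAs such as microRNAs are cut, and for most no role is known. Antisense RNA genes lie on the strand opposite a protein-coding gene and share part of its sequence in reverse. Noncoding genes that carry only a CR number in the text have no role assigned here beyond what their position shows.

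The study asked which genes depend on Shavenbaby, a zinc finger transcription factor encoded by the ovo locus, in early enterocytes, the absorptive cells of the gut. Flies of the genotype myoIA-Gal4, UAS-GFP; tubGal80TS were crossed to 4 stocks, so that all groups, control included, carried the enterocyte driver, the GFP marker and the temperature-sensitive Gal80 repressor. The control came from Canton-S, the knockdown (svb RNAi) from UAS-SvbRNAi, and the other groups from UAS-SvbACT::GFP, which overexpresses the constitutive activator, and UAS-Svb3Kmut::GFP, labelled SvbREP and known as the constitutive repressor form. Virgin females spent 3 days at room temperature and 6 days at 29 °C, so that they were 9 days old at dissection. GFP-positive cells of midgut regions R3 to R5 were sorted from pools of females, with 3 libraries per genotype made on different days. Each transgene came from its own stock, so genotype and stock cannot be told apart in any comparison.

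Library totals ran from 3209182 to 8881488 counts, at which a floor of 3 counts corresponds to 0.338 to 0.935 CPM (the count divided by the library total, on a common scale). The ovo gene was not lower where knockdown was labelled. It was at 11.3, 2.06 and 1.28 CPM in control and at 6.5, 16.1 and 7.91 CPM where the label was svb RNAi (log2 fold change 1.00, edgeR adjusted p = 0.458), and the groups overlapped. It was at 105 to 216 CPM in SvbACT and 170 to 525 CPM in SvbREP, above every control library. None of 8 enterocyte marker genes was called in any comparison. Their median log2 fold change was 0.53 in svb RNAi, −0.24 in SvbACT and −0.49 in SvbREP. Their summed level was 755 to 1570 CPM in control, 932 to 5070 in svb RNAi, 790 to 1000 in SvbACT and 826 to 1264 in SvbREP. For 12 markers of enteroendocrine cells, the hormone-producing cells of the gut, the median log2 fold change was −1.20 in svb RNAi, −2.36 in SvbACT and −2.32 in SvbREP. Their summed level was 924 to 3420 CPM in control, 490 to 1202 in svb RNAi, 307 to 498 in SvbACT and 276 to 489 in SvbREP, and 1, 4 and 4 were called lower. The summed level of 6 visceral muscle markers was 83.3 to 547 CPM in control and 7.63 to 314, 32.3 to 119 and 17.9 to 159 CPM in the same order, with none called. Of 6 progenitor markers 3 were called lower and 1 higher in svb RNAi, and 1 was called higher in SvbACT and 1 in SvbREP. Their summed level was 5298 to 5698 CPM in control and 3604 to 3897 in svb RNAi, without overlap. It was 4090 to 6181 CPM in SvbACT and 4533 to 4876 in SvbREP. Of 3 neuron markers tested none was called in svb RNAi (median log2 fold change −0.50), 1 was called lower in SvbACT (median −1.96) and 2 in SvbREP (median −2.28). The summed levels of fat body, hemocyte and germline markers reached at most 6.60, 13.3 and 1.35 CPM in any library. The part of these cells in the results below was not tested, and in sorted bulk samples fewer cells of a type and less RNA per cell cannot be told apart.

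Together the 330 genes took a small share of each library, and a few RNAs held most of it. The share was 1.33 ± 0.270% (SD, n = 3) of counts in control, 0.940 ± 0.101% in svb RNAi, 1.24 ± 0.384% in SvbACT and 1.15 ± 0.191% in SvbREP. All 3 svb RNAi libraries (0.903%, 1.05% and 0.862%) were below all 3 control libraries (1.64%, 1.23% and 1.13%), while the other genotypes overlapped control. The 4 RNAs with the most counts, lncRNA:Hsromega, lncRNA:CR42862, lncRNA:alphagamma-element:CR32865 and lncRNA:CR40469, held 70.8% of the counts on noncoding genes. The median gene had 229.5 counts over all 12 libraries, 257 of 330 genes had fewer than 600, and 281 had at least 1 count in every library. Of the 330 genes, 159 had a single exon, and the median exon length was 1111 bases.

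Levels can be ordered between genes only per exon length. On that scale lncRNA:CR40469, a single-exon gene of 214 bases, stood highest at 2104 CPM per kilobase averaged over 12 libraries. It was followed by the alphagamma element at 831, lncRNA:CR42862 at 593, asRNA:CR31144 at 202, lncRNA:CR44999 at 190.5 and Hsromega at 150.3 CPM per kilobase. The median was 3.67 CPM per kilobase for lncRNA: genes and 3.23 for asRNA: genes, so most of these genes lay far below the leading 6. For lncRNA:CR44999, 91.8% of the exon bases also belong to a same-strand protein-coding gene, so its reads cannot be assigned to one of them.

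**Figure D1:**
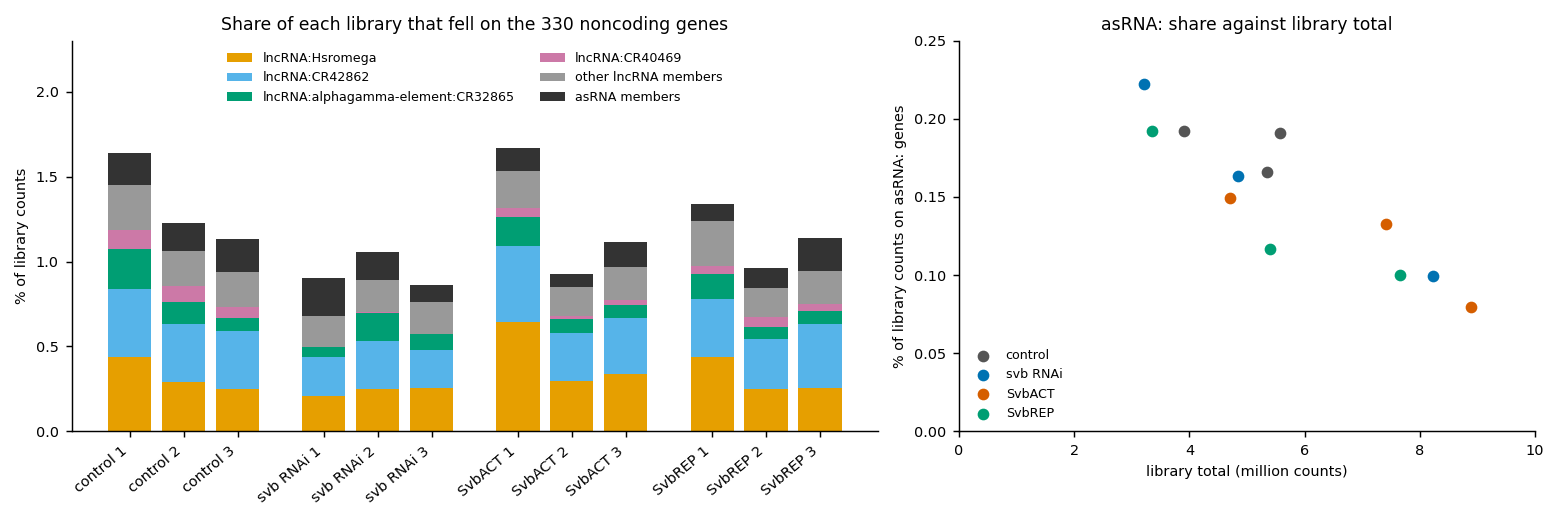
Left, the share (% of library counts) on Hsromega, lncRNA:CR42862, the alphagamma element, lncRNA:CR40469, the other lncRNA: genes and all asRNA: genes, stacked per library. Right, the share on the 211 asRNA: genes (%) against the library total in counts, one point per library; the share ran from 0.222% in the smallest library to 0.0793% in the largest.

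In the libraries labelled svb RNAi, 13 of 330 noncoding genes differed from control at an adjusted p under 0.05, 5 higher and 8 lower (3.94%, edgeR quasi-likelihood test, Benjamini-Hochberg over all genes tested). Among all 8490 genes tested 14.3% were called, 813 higher (9.58%) and 400 lower (4.71%). Depth differs between these sets, and among genes with fewer than 600 counts 4 of 257 noncoding genes (1.56%) were called beside 5.11% of all genes. The calls fell on lncRNA: genes, 12 of 119, more than on asRNA: genes, 1 of 211, as counts without a test of their difference. Of the 13 called genes, 6 lie on the X chromosome, which holds 60 of the 330. How many of all genes called lie on X was not examined, so nothing particular to noncoding genes is read from this count. With the library numbers of the sample descriptions as a block, 20 noncoding genes were called, 6 higher and 14 lower, beside 1964 of all genes.

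The noncoding gene that fell most in svb RNAi was lncRNA:CR40469 (FBgn0058469; dm6, X:122493-122706, plus strand), a short intergenic gene with no annotated neighbour overlapping it. It was at 1098, 948 and 645 CPM in the control libraries. In svb RNAi it was at 14.6, 47.8 and 45.4 CPM. It was at 532, 225 and 310 CPM in SvbACT and at 507, 631 and 399 CPM in SvbREP. Thus the svb RNAi libraries were far below every other library, and the SvbACT and SvbREP libraries all lay between them and the lowest control. The log2 fold change was −4.62 (SE 0.50, adjusted p = 0.0007) in svb RNAi. In SvbACT and SvbREP it was −1.34 (adjusted p = 0.217) and −0.81 (adjusted p = 0.484), which did not pass the test. From a mean of 897 ± 231 CPM in control it came to 35.9 ± 18.5 CPM in svb RNAi.

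Of the 8 genes that fell, 3 are annotated precursors of microRNAs, the small RNAs that repress mRNAs by base pairing. The gene lncRNA:CR42651 (3R:6808796-6816379) holds mir-10, which lies in the Antennapedia complex of Hox genes. It was at 88.6, 84.2 and 95.4 CPM in control and at 9.04, 12.4 and 22.1 CPM in svb RNAi. The groups were well separated (log2 fold change −2.58, SE 0.29, adjusted p = 0.0002). Its libraries were also below control in SvbACT (49.9, 39.1 and 55.8 CPM) and in SvbREP (35.3, 33.9 and 54.5 CPM), with log2 fold changes of −0.89 (adjusted p = 0.134) and −1.12 (adjusted p = 0.063). With the description block, the SvbREP difference was called (adjusted p = 0.041).

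The gene lncRNA:CR43650 (2R:16829095-16839494) holds mir-8, the Drosophila member of the miR-200 family and a regulator of growth. It was at 26.6, 20.4 and 12.5 CPM in control and at 1.25, 4.74 and 5.35 CPM in svb RNAi, without overlap (log2 fold change −2.32, SE 0.51, adjusted p = 0.011). In SvbACT (21.6, 7.09 and 7.67 CPM) it overlapped control. The gene lncRNA:CR44206 (2R:13329352-13344808) holds mir-184, known for its role in the female germline, and is named here after its values were seen. It was at 180, 191 and 154 CPM in control and at 95, 117 and 113 CPM in svb RNAi, a smaller difference with tighter replicates (log2 fold change −0.69, SE 0.16, adjusted p = 0.013).

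After these 3 calls were seen, all noncoding genes that hold an annotated microRNA hairpin on their own strand were collected. There were 15, and 3 were called lower and none higher in svb RNAi, beside 4.71% of all genes called lower. These are the 3 that prompted the collection, so the count adds nothing to them. The log2 fold change was below 0 for 13 of 15, with a median of −0.38 beside −0.27 over the 330 noncoding genes and 0.16 over all genes tested. In SvbACT and SvbREP none of the 15 was called. Precursors that did not pass the test in svb RNAi included lncRNA:CR43459, which holds mir-277 and mir-34 (203 ± 27.8 CPM in control and 154 ± 9.87 in svb RNAi), and lncRNA:CR43651, which holds mir-14 (84.3 ± 29.6 and 73.9 ± 15.8 CPM). The precursor of mir-275, lncRNA:CR43857, was at 137 ± 50.3 and 105 ± 17.1 CPM, and that of mir-279 and mir-996, lncRNA:CR31044, at 85.9 ± 25.8 and 67.4 ± 19.6 CPM. The precursor of mir-bft, lncRNA:CR43314, was not called. It was at 231, 7.11 and 29.9 CPM in control, 12.5, 14.2 and 19.3 CPM in svb RNAi, 15.7, 4.95 and 13.0 CPM in SvbACT and 364, 14.1 and 7.45 CPM in SvbREP. Replicate 1 stood far above the others in control and in SvbREP, with no such library in the other genotypes. Counts on a precursor gene do not measure the mature microRNA.

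**Figure D2:**
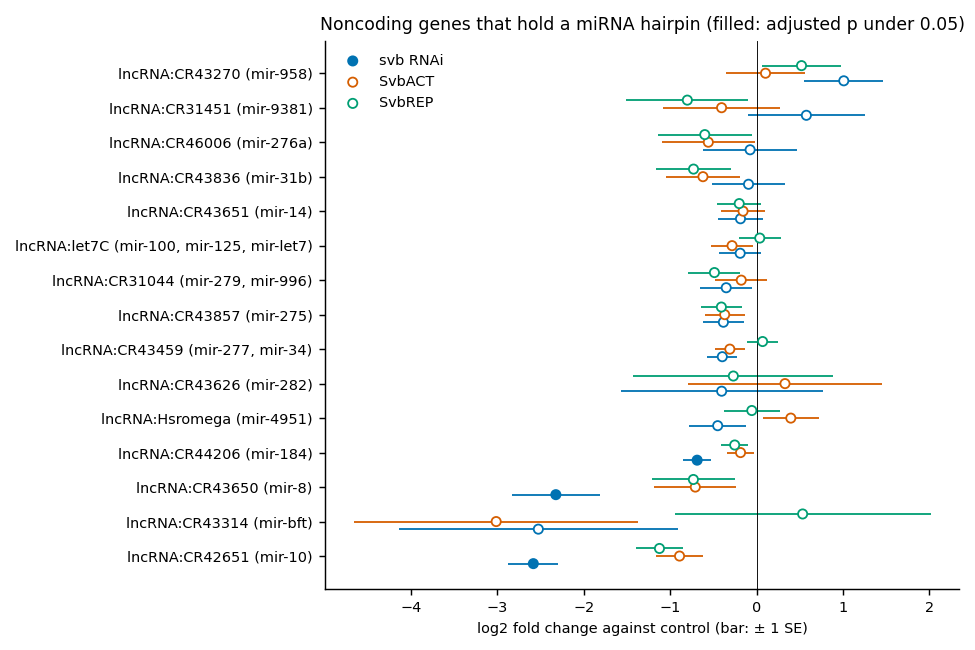
Log2 fold change against control (x axis, bar ± 1 SE) of the 15 noncoding genes that hold a microRNA hairpin, in svb RNAi, SvbACT and SvbREP; filled points passed an adjusted p of 0.05. The 3 filled points are the svb RNAi values of the mir-10, mir-8 and mir-184 precursors at −2.58, −2.32 and −0.69.

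The other genes that fell in svb RNAi have no assigned role. Both lncRNA:CR45179 and lncRNA:CR44478 are nested in introns of protein-coding genes on the opposite strand. The first, lncRNA:CR45179 (3L:16689268-16697897), lies within Lasp and CG43954. It was at 8.61, 6.73 and 9.46 CPM in control, 2.49, 1.03 and 1.82 in svb RNAi and 2.48, 1.67 and 2.38 in SvbREP. Both genotypes were below control without overlap, and the log2 fold changes were −2.22 (SE 0.55, adjusted p = 0.017) in svb RNAi and −1.91 (adjusted p = 0.114) in SvbREP. The gene lncRNA:CR44478 (2L:18145098-18145499) lies in an intron of Socs36E, an inhibitor of JAK/STAT signalling. It was at 10.6, 4.30 and 7.93 CPM in control and 1.87, 2.06 and 1.95 CPM in svb RNAi (log2 fold change −1.94, SE 0.55, adjusted p = 0.031). Its host Socs36E was at 958 to 1160 CPM in control and 906 to 1150 CPM in svb RNAi, and was not called.

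The intergenic lncRNA:CR45517 (X:5428483-5429256) was at 25.7, 20.9 and 17.9 CPM in control and 5.30, 4.95 and 9.49 CPM in svb RNAi, without overlap (log2 fold change −1.68, SE 0.37, adjusted p = 0.010). The abundant lncRNA:CR42862 (3L:224106-230964) was at 4017, 3452 and 3423 CPM in control and 2310, 2827 and 2259 CPM in svb RNAi. That shift was small but beyond the spread of the replicates (log2 fold change −0.56, SE 0.17, adjusted p = 0.041). In SvbACT (4474, 2828 and 3258 CPM) and SvbREP (3421, 2975 and 3817 CPM) it overlapped control.

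A total of 5 noncoding genes rose in svb RNAi. The largest rise was that of lncRNA:CR44833 (X:4956646-5063868, minus strand), a 4-exon gene of 446 exon bases whose span overlaps ovo on the opposite strand and which shares 25 exon bases with it. It was at 1.62, 1.12 and 1.02 CPM in control, from 9, 6 and 4 counts, and at 9.97, 14.2 and 8.51 CPM in svb RNAi, from 32, 69 and 70 counts. It was at 2.83, 0.788 and 6.60 CPM in SvbACT and 6.01, 4.26 and 5.07 CPM in SvbREP. The svb RNAi and SvbREP libraries were all above control, while SvbACT overlapped it. The log2 fold change was 3.08 (SE 0.64, adjusted p = 0.0075) in svb RNAi, 1.37 (adjusted p = 0.383) in SvbACT and 2.0 (adjusted p = 0.175) in SvbREP. It shares 5.61% of its exon bases with ovo, and the share of its reads that belong to ovo was not tested.

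In the fit without a block, the only asRNA: gene called in svb RNAi was asRNA:CR43609 (2L:21952-24237), which shares 93.6% of its exon bases with Ir21a, an ionotropic receptor used in cool sensing. It was at 2.15, 3.37 and 5.63 CPM in control, 18.1, 14 and 17.0 in svb RNAi, 7.02, 11.5 and 10.2 in SvbACT and 7.71, 5.37 and 5.66 in SvbREP. The svb RNAi libraries were the highest and the SvbACT libraries were also above every control (log2 fold changes 2.16, SE 0.38, adjusted p = 0.0033, and 1.38, adjusted p = 0.093). With the description block, the SvbACT difference was called (adjusted p = 0.048). That block called 6 asRNA: genes in svb RNAi, and DESeq2 called 5. Ir21a was at 0.131 to 6.5 CPM over all libraries and was too low to be tested.

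The gene lncRNA:CR43264 (X:5831898-5832215), in an intron of CG15765 on the opposite strand, was at 0.359, 4.68 and 3.58 CPM in control and 9.35, 9.69 and 19.0 CPM in svb RNAi (log2 fold change 2.16, SE 0.59, adjusted p = 0.027). The control replicate at 0.359 CPM rests on 2 counts. The gene lncRNA:CR45082 (X:21496526-21520017) was at 13.3, 15.3 and 18.7 CPM in control and 32.1, 37.9 and 24.9 in svb RNAi (log2 fold change 1.01, adjusted p = 0.039), and lncRNA:CR32773 (X:4387676-4611385) was at 75, 75 and 82.9 CPM and 135, 108 and 113 CPM (log2 fold change 0.61, adjusted p = 0.037). Both genes were higher in svb RNAi without overlap, but neither was called with TMM scaling or with DESeq2. Over all genes, TMM scaling moved the median log2 fold change in svb RNAi from 0.16 to 0.01, so small rises in this comparison depend on how libraries are scaled.

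**Figure D3:**
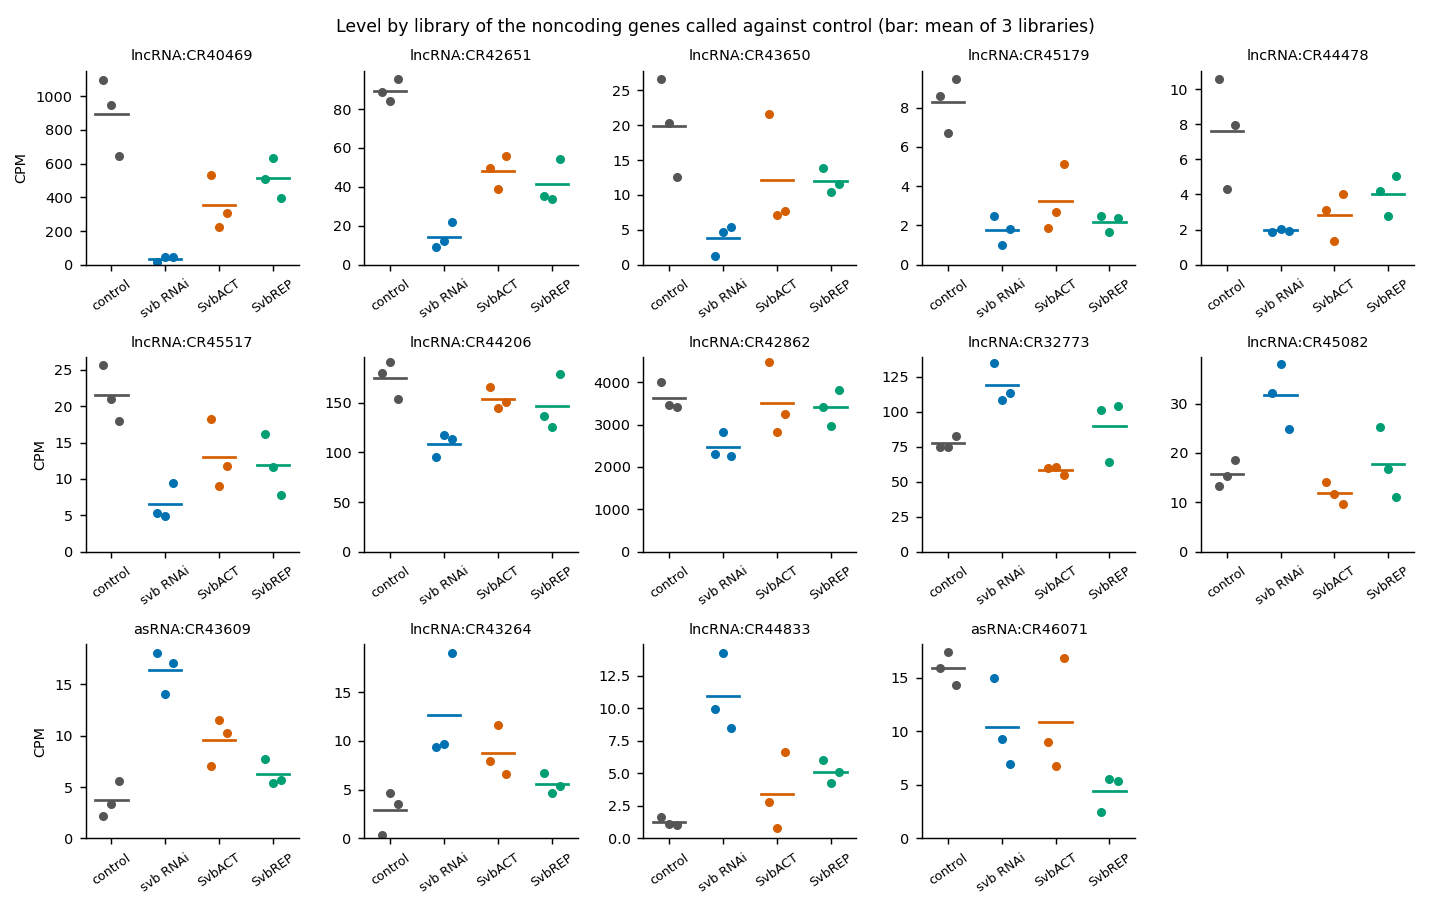
CPM by library (points) and mean of 3 libraries (bar) in the 4 genotypes for the 14 noncoding genes called against control, each panel on its own linear axis from 0. In the first panel lncRNA:CR40469 falls from a mean of 897 CPM in control to 35.9 CPM in svb RNAi.

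In SvbACT no noncoding gene was called against control, beside 1.73% of all genes tested. At an unadjusted edgeR p under 0.05 there were 44 (13.3%), beside 13.0% of all genes. Of the 44, 40 were lower (12.1% of the 330, beside 7.07% of all genes) and 4 higher (1.21%, beside 5.97%). DESeq2 called 3, beside 328 of all genes. With the description block 4 were called. These were asRNA:CR45896, asRNA:CR44049 and asRNA:CR44961, which were lower, and asRNA:CR43609, which was higher, beside 342 of all genes. The named ones among these 4 outside asRNA:CR43609 were chosen after their values were seen. The gene asRNA:CR44961, opposite gce, a juvenile hormone receptor gene, was at 29.3, 23.2 and 38.6 CPM in control and at 14.7, 8.56 and 17.9 CPM in SvbACT, without overlap (log2 fold change −1.15, adjusted p = 0.245 without the block and 0.027 with it).

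In SvbREP 1 noncoding gene was called against control, beside 1.28% of all genes tested. It was asRNA:CR46071 (2L:8934796-8935720), which shares 96.4% of its exon bases with the tetraspanin gene Tsp29Fa. It was at 16.0, 17.4 and 14.3 CPM in control and 2.48, 5.56 and 5.36 in SvbREP, without overlap (log2 fold change −1.86, SE 0.43, adjusted p = 0.0499). Tsp29Fa itself was at 143 to 165 CPM in control and 113 to 138 in SvbREP, and was not called (log2 fold change −0.36, adjusted p = 0.375). The adjusted p of asRNA:CR46071 lay just under the threshold and ranged from 0.0028 to 0.401 over 24 alternatives, 15 of which lost the call, among them leaving out any one control or SvbREP library. The description block called 3 noncoding genes in SvbREP, all lower, namely asRNA:CR45798, asRNA:CR46071 and lncRNA:CR42651, beside 270 of all genes. The first of these, asRNA:CR45798, was at 21.7, 14.6 and 17.9 CPM in control and 2.22, 5.37 and 6.26 CPM in SvbREP (log2 fold change −2.0, adjusted p = 0.0796 without the block and 0.024 with it).

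Between SvbACT and SvbREP no noncoding gene was called, beside 0.0824% of all genes tested, and 9 (2.73%) had an unadjusted p under 0.05, beside 4.84% of all genes. DESeq2 called 1, lncRNA:CR44953 (3R:29755190-29759040), named after its values were seen. It was at 21.3, 30.5 and 15.3 CPM in SvbACT and at 5.62, 2.04 and 0 CPM in SvbREP, and at 5.20, 0.748 and 2.81 CPM in control. The SvbACT libraries were above all 9 others of the 12, but edgeR did not call the difference from control (log2 fold change 2.93, SE 0.90, adjusted p = 0.162). Over any difference among the 4 genotypes, 9 noncoding genes were called, beside 7.47% of all genes, and 26 with the description block. One of the 9, asRNA:CR45822 opposite the insulator protein gene CTCF, was called in no single contrast. It was at 2.15, 4.11 and 4.09 CPM in control, 8.10, 11.8 and 7.05 in svb RNAi and 2.56, 1.69 and 0.639 in SvbACT. In SvbREP its log2 fold change from control was 0.05 (edgeR adjusted p = 0.981). The svb RNAi libraries lay above those of control and SvbACT (edgeR adjusted p = 0.0476 over the 4 genotypes). That call was lost in 16 of 23 alternatives, TMM scaling among them, with adjusted p from 0.014 to 0.288.

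Below the level of single calls, the 330 noncoding genes had a median log2 fold change below 0 in all 3 genotypes. Their median log2 fold change was −0.27 in svb RNAi, −0.58 in SvbACT and −0.39 in SvbREP, beside 0.16, 0.01 and 0.04 over all genes tested. The log2 fold change was below 0 for 202, 262 and 246 of the 330. All 3 libraries were below all 3 control libraries for 47 noncoding genes in svb RNAi (14.2%, beside 11.8% of all genes), 82 in SvbACT (24.8%, beside 11.5%) and 65 in SvbREP (19.7%, beside 9.86%). Among genes with fewer than 600 counts the same was true of 36 of 257 noncoding genes in svb RNAi (14%, beside 10.6% of all genes at that depth), 62 in SvbACT (24.1%, beside 15.5%) and 55 in SvbREP (21.4%, beside 12.6%). All genes with fewer than 600 counts had medians of −0.01, −0.18 and −0.12. All 3 comparisons use the same control libraries and are not independent of each other. By library, the median log2 of CPM plus 1 of the noncoding genes was 2.41, 2.19 and 2.49 in control. It was 2.46, 2.27 and 1.85 in svb RNAi and 1.90, 1.84 and 2.29 in SvbREP, both overlapping control. In SvbACT it was 2.06, 1.65 and 2.07, below all control libraries. The medians are descriptions without a test.

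**Figure D4:**
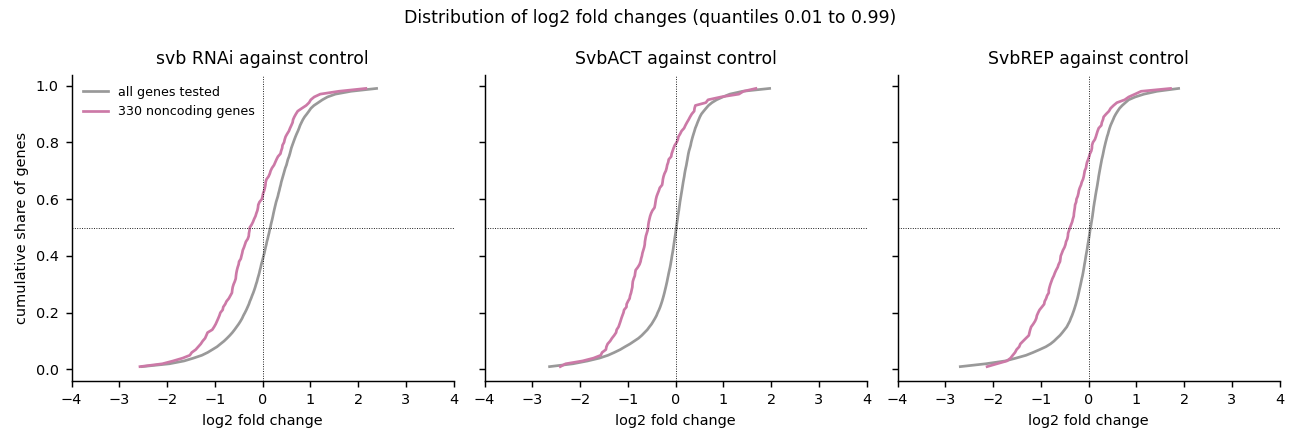
Cumulative share of genes (y axis) against log2 fold change (x axis) for all 8490 genes tested and for the 330 noncoding genes, in svb RNAi, SvbACT and SvbREP against control. The noncoding curve lies left of the other in svb RNAi, and also in SvbACT and SvbREP except in the extreme tails. Its medians are −0.27, −0.58 and −0.39.

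The downward shift was larger in asRNA: than in lncRNA: genes in SvbACT, with medians of −0.65 and −0.40, and in SvbREP, with −0.43 and −0.30. In svb RNAi the order was the other way, with −0.18 and −0.35. The share of counts on asRNA: genes moved with library size. The 211 asRNA: genes together took 0.222% of the counts in the smallest library, svb RNAi replicate 1, and 0.0793% in the largest, SvbACT replicate 2. Across the 12 libraries this share fell as the library total rose (Pearson r = −0.893, permutation p = 0.00028, adjusted 0.00084; Spearman rho = −0.888, permutation p = 0.00026; 3 sets of genes examined, two-sided). Without the 2 libraries farthest from the median total r was −0.813, and after subtracting genotype means it was −0.917. In 3 of 4 genotypes the largest library had the lowest share. In all 4 genotypes the smallest library was the one with description number 3, and it had the highest asRNA: share. For the libraries with number 3, a small total and the description number therefore cannot be told apart. The largest library had number 1 in control and SvbREP and number 2 in svb RNAi and SvbACT.

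The same relation was not seen for lncRNA: genes (r = 0.257, permutation p = 0.413), nor for the other 2131 genes with fewer than 600 counts (r = −0.142, permutation p = 0.651). For lncRNA: genes the value depended on 2 libraries, and without the 2 farthest from the median total r was 0.764. Summed counts on asRNA: genes stayed between 6306 and 10656 per library, while those on lncRNA: genes ran from 21850 to 113608. The library total is the denominator of the share, so a set whose counts vary little gives such a relation by construction. The p-values of the asRNA: share cannot separate this from a change in the level of these genes. With the log2 library total as a covariate, chosen after seeing the data, the asRNA: medians were −0.23 in svb RNAi, −0.42 in SvbACT and −0.45 in SvbREP, beside −0.32, −0.40 and −0.40 for lncRNA: genes. All 13 genes called in svb RNAi were called in that fit too, with 17 in all.

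Position relative to other genes separates the noncoding set. In the reference annotation 236 of 330 noncoding genes share exon bases with a gene on the opposite strand, and 214 of these could be paired with a partner that was tested. The noncoding gene had fewer counts than its partner in 200 of 214 pairs, with a median of 6.13% of the partner's count. In svb RNAi, where the partner was called higher (22 pairs), the log2 fold change of the noncoding gene was above 0 in 19, with a median of 0.63. Where the partner was called lower (13 pairs), it was below 0 in 12, with a median of −0.99. In the 179 pairs whose partner was not called it was below 0 in 113, with a median of −0.28. None of the noncoding genes in the 35 pairs with a called partner was itself called in the fit without a block. With the description block 3 of them were called, and with DESeq2 1.

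Examples chosen after their values were seen show both directions. The gene asRNA:CR43964, opposite CG15093, had a log2 fold change of −2.01 beside −1.20 for its partner. Opposite AdoR, the adenosine receptor gene, asRNA:CR46082 had −1.20 beside −2.35. On the other side asRNA:CR45871, opposite the replication gene Mcm7, had 0.67 beside 1.35, and asRNA:CR45835, opposite the translocation gene Sec63, had 0.98 beside 0.81. Whether reads were assigned by strand is not given in the sources used here, so reads of a partner counted on the noncoding gene cannot be told apart from a joint change. For 15 noncoding genes all exon bases lie within exons of an opposite-strand gene of the table. These had 67 to 2550 counts, with a median of 171. Every member needed at least 60 counts to enter, so these counts cannot show how reads were assigned.

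**Figure D5:**
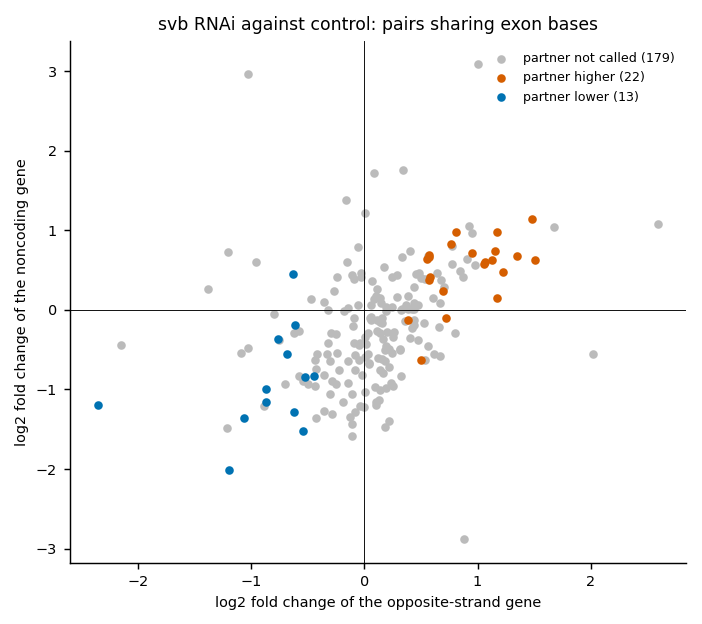
Log2 fold change in svb RNAi of 214 noncoding genes (y axis) against that of the opposite-strand gene with which each shares exon bases (x axis). Of the 22 pairs with a partner called higher, 19 lie above 0, and of the 13 with a partner called lower, 12 lie below 0.

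None of the 6 noncoding RNAs with a given name was called in any genotype in the fit without a block. Hsromega, the heat-inducible RNA that gathers hnRNP proteins in nuclear omega speckles, was at 2510 to 4375 CPM in control, 2084 to 2559 in svb RNAi, 2983 to 6463 in SvbACT and 2475 to 4391 in SvbREP. The genotypes overlapped, with log2 fold changes of −0.45 (95% interval −1.17 to 0.27), 0.40 and −0.05. Over any difference among the 4 genotypes the edgeR adjusted p of Hsromega was 0.355, and 0.024 with the description block, which called it. The alphagamma element, a heat-shock locus transcript that contains Dm88 and invader1 transposon sequence, was at 2356, 1261 and 748 CPM in control and 565, 1623 and 892 CPM in svb RNAi. It overlapped control there (log2 fold change −0.50, adjusted p = 0.606), although the description block called it lower (adjusted p = 0.028) and over any difference (adjusted p = 0.0448).

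Of the small RNA precursors, let7C, the precursor of mir-100, let-7 and mir-125 that times developmental transitions, was at 85.1 ± 15.0 CPM in control and 74.7 ± 12.7, 70.1 ± 14.9 and 87.6 ± 28.8 CPM in svb RNAi, SvbACT and SvbREP. The piRNA cluster transcript flam was at 3.95 to 5.88 CPM in control and 3.16 to 11.3 CPM in svb RNAi. Neither differed beyond the spread of its replicates. The chromosome 4 gene sphinx had 0, 0 and 4 counts in control and 16, 9 and 7 in svb RNAi, at or near the floor in every control library, and was not called (adjusted p = 0.134). Antisense to the regena gene Rga, asRNA:ASTR was at 8.25, 14.2 and 12.3 CPM in control, 5.13, 5.74 and 6.18 in SvbACT and 2.88, 5.37 and 7.15 in SvbREP. Both groups were below control without overlap, but with log2 fold changes of −1.03 (adjusted p = 0.336) and −1.20 (adjusted p = 0.275) they did not pass the test, and Rga itself was at 122 to 139 CPM in control and 120 to 134 in both. Hosts of small nucleolar RNAs, the roX RNAs and the bithorax-complex RNAs were not analysed here.

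Protein genes that act with noncoding RNAs were read from short lists. Of 7 dosage compensation genes, whose products bind roX RNAs on the male X chromosome, 1 was called lower in svb RNAi. Of 6 tested genes for omega speckle proteins none was called in any genotype. Of 12 genes of the nuclear exosome and its cofactors, which degrade noncoding transcripts, 5 were called higher in svb RNAi and none lower, beside 9.58% of all genes called higher, with a median log2 fold change of 0.85 beside 0.16 over all genes. With TMM scaling 2 were called higher, beside 5.05% of all genes, with a median of 0.70, and without control replicate 1 none was called. Their summed level was 215 to 310 CPM in control and 421 to 500 CPM in svb RNAi, without overlap. In SvbACT and SvbREP none of the 12 was called, with medians of 0.31 and 0.53.

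The authors' deposited table called 5 of the 330 noncoding genes higher and 12 lower in svb RNAi, beside 14% of its genes. The authors' deposited table called 12 of the 13 genes called here in the same direction. For SvbACT the authors' deposited table called 1 noncoding gene in each direction, beside 280 of its genes (3.18%). In SvbREP it called 4, all lower, asRNA:CR46071 among them, beside 258 of its genes (2.93%).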

How the data were processed

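RNA was measured in 12 libraries, 3 per genotype. The deposited table holds raw counts per gene, and per the submitters' processing notes the authors used FastQC 0.11.5, STAR 2.5.2b, HTSeq 0.6.0, edgeR and the dm6 build; strand setting and annotation are not given in the sources used here. The authors' deposited calls are a score of −1, 0 or 1 per gene. The table also names 12 columns of no sample, which were not used. The genes, lists and tests were chosen with earlier results of these data known.

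Counts scaled to library totals were fitted with edgeR 4.0.16 (quasi-likelihood, robust, genotype only, R 4.3.3) for the 8490 genes with at least 60 counts, two-sided, with Benjamini-Hochberg adjustment and a threshold of 0.05. The steps were tested on simulated data. Alternatives were TMM, DESeq2 1.42.0, other filters, replicate blocks, fewer libraries and a library-total covariate. Means are CPM ± SD (n = 3). The interval of a log2 fold change was built from the edgeR fit and its SE, so it includes the spread between libraries. Floors cover counting error only.

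Named genes were, by rule, up to 6 called genes with the largest rise and the largest fall per contrast, the 5 most abundant, the 5 with the smallest p over all genotypes, those with a given name, and those at the count minimum; others are said to be named after their values were seen. Positions come from Ensembl release 115 (BDGP6.54, dm6 coordinates), which matched all 330 genes by identifier.

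Replicate numbers are those of the titles. The numbers in the descriptions differ from them for svb RNAi, and these pair the libraries: over 7325 genes, all 18 same-number pairs between genotypes had correlated deviations from the genotype means (0.138 to 0.469, mean 0.290), beside a mean of −0.142 for other pairs. For title numbers the mean was 0.0242, with 9 of 18 over 0.1. Per the labels the replicates are biological and were made on different days.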

Additional observations from a re-analysis of the deposited data

How the results depend on the processing

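Counts of called noncoding genes varied with the block, the tool and the libraries kept, and so did those over all genes tested. With the description numbers as block there were 20 noncoding genes in svb RNAi, 4 in SvbACT, 3 in SvbREP and 26 over any difference. Over all genes that block called 1964, 342, 270 and 1558, beside 1213, 147, 109 and 634 without it. With TMM factors added to the block, 23, 5, 2 and 28 noncoding genes were called, beside 1653, 337, 283 and 1326 of all genes. The block on title numbers gave 14, 0, 1 and 7 noncoding genes, and its counts over all genes are not given here. DESeq2 called 17, 3, 5 and 21 noncoding genes, and 1 between SvbACT and SvbREP. Over all genes DESeq2 called 328 in SvbACT, 272 in SvbREP, 1133 over any difference and 41 between SvbACT and SvbREP. Its count over all genes in svb RNAi is not given here. Nothing particular to noncoding genes is therefore read from the 17 or from the counts of the title block. Fits of only the genotypes compared gave 2 noncoding genes in SvbACT, beside 145 of all genes. The library-total covariate, chosen after seeing the data, gave 2 in SvbREP and 16 over any difference, beside 138 and 744 of all genes.

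Leaving out libraries gave 3 to 15 calls in svb RNAi, 0 to 1 in SvbACT, 0 to 2 in SvbREP, 0 to 0 between SvbACT and SvbREP and 1 to 10 over any difference. The lowest count over any difference, 1, came without description number 2, beside 79 of all genes. Without control replicate 1, control replicate 3 or svb RNAi replicate 1 the svb RNAi count was 7, 8 and 8, and without description numbers 2 or 3 it was 4 and 3. Over all genes tested the svb RNAi counts in the same order were 418, 804, 607, 245 and 156, beside 1213 with all libraries. Median log2 fold changes of the noncoding genes ranged from −0.40 to −0.15 in svb RNAi, −0.68 to −0.39 in SvbACT and −0.61 to −0.30 in SvbREP. Between SvbACT and SvbREP the median was −0.06, with a range of −0.245 (−0.244 without SvbACT replicate 1) to 0.0901; it turned to 0.0387 without SvbACT replicate 2, 0.0901 without SvbREP replicate 3, 0.0197 without description number 2 and 0.069 with the covariate. The cause was not tested.

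In svb RNAi, lncRNA:CR40469 and lncRNA:CR42651 were called under all 24 alternatives, while lncRNA:CR44478, lncRNA:CR45179, lncRNA:CR43264, lncRNA:CR45082 and lncRNA:CR32773 lost the call in 8, 6, 6, 10 and 12 of 24. The gene lncRNA:CR42862 lost it in 8, lncRNA:CR44206 in 4, lncRNA:CR43650 and lncRNA:CR45517 in 2 each, and asRNA:CR43609 and lncRNA:CR44833 in 1 each. No direction of a named called gene reversed. A minimum of 30 or 120 counts gave 372 or 253 genes. Of the 330 genes, 257 had fewer than 600 counts.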
